A study of Mus musculus with 20 samples.

Results

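Of the 20 small RNA libraries of a mouse hippocampus study, 4 carry the run number 3 in the deposited technical table, and their miRNA levels were set against those of the 16 libraries of runs 1, 2 and 4. The 4 libraries were chosen by that number alone, not by any miRNA value. They come from CBD replicates 7 and 8 and vehicle replicates 6 and 7. The other 16 libraries hold 8 CBD and 8 vehicle mice, in runs of 5 (run 1), 6 (run 2) and 5 (run 4). CBD mice received cannabidiol at 200 mg/kg per day, divided over 2 intraperitoneal injections a day for 5 days, and vehicle mice received the vehicle on the same schedule. All 20 animals were wild-type males of the strain C57BL/6JOlaHsd, each gave 1 library from its right ventral hippocampus, and the labels give no age. The technical table does not explain what a run stands for. Runs follow the mouse numbers, so a run cannot be told apart from anything else that mice of neighbouring numbers share.

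MicroRNAs are short RNAs that guide Argonaute proteins to messenger RNAs, mainly by pairing through the seed, bases 2 to 8 of the mature miRNA. Several are so restricted to one cell type that they serve as markers of that cell in bulk tissue. miR-34b and miR-34c come from one primary transcript and are abundant in cells with motile cilia, which in brain include the ependyma that lines the ventricles. miR-204, from an intron of Trpm3, is abundant in the choroid plexus, the epithelium that secretes cerebrospinal fluid. miR-143 and miR-145a come from another shared transcript and mark vascular smooth muscle. The ventral hippocampus borders the lateral ventricle, whose wall carries ependyma and whose lumen holds choroid plexus. In bulk RNA, more cells of a type and more RNA per cell cannot be told apart.

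The sequences below are of miRNAs the comparison turns on, from RefSeq (GRCm38.p6), with the seed in capitals. The names miR-143-3p and miR-34c-5p matched no sequence, so both are absent here and from the relation of differences to GC content. The first set holds miRNAs with higher values in run 3, with miR-34a-5p added because it has the same seed as miR-34b-5p.

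miR-34b-5p: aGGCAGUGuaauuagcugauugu
miR-34b-3p: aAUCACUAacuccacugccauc
miR-34a-5p: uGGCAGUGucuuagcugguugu
miR-204-5p: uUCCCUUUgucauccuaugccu
miR-341-3p: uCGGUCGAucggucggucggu

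The second set holds miRNAs with lower values in run 3, with a GC content from 45.5% for miR-344d-3p to 59.1% for miR-127-3p.

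miR-127-3p: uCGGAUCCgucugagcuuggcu
miR-1981-5p: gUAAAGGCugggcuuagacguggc
miR-342-3p: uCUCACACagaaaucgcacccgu
miR-344d-3p: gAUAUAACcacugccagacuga

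The hairpin of miR-34b lies at chr9:51103562-51103645 on the minus strand (GRCm38), inside an intron of Btg4 on the opposite strand. That of miR-204 lies at chr19:22750605-22750672 on the plus strand, in an intron of Trpm3 on the same strand. Those of miR-341, at chr12:109611500-109611595, and miR-127, at chr12:109592846-109592915, lie in the imprinted Dlk1-Meg3 region, the first in an intron of Rian and the second opposite an exon of Rtl1.

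Run 3 libraries held 426525 to 645899 total reads (median 575208), against 242178 to 1245429 (median 776994) in the other runs. Total reads are the library sizes of the technical table, which does not say whether they count all reads or only those assigned to miRNAs. The 281 miRNAs held 99.2% to 99.6% of them. CBD replicate 8 stood apart within run 3. miR-434-3p took 31.6% of its reads, against 15.9% to 18.4% in the other 3 libraries of run 3, and its effective library was 0.693 of its total reads. Values without it stand beside the results for most of the miRNAs described at length. Levels are log2 CPM, that is log2 of reads per 1000000 of the effective library with 0.5 read added, as the authors deposited them for 281 miRNAs. Differences are run 3 minus the other runs from limma, with treatment as a further term and p-values adjusted over 281 miRNAs by Benjamini and Hochberg.

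Of the 281 miRNAs, 2 (0.712%) passed an adjusted p of 0.05, miR-34b-5p of ciliated cells and miR-143-3p of smooth muscle, and both were higher in run 3. None was lower at that threshold. edgeR's quasi-likelihood test on the recovered reads called 4 miRNAs at an adjusted p of 0.05, all higher. With p-values left unadjusted (under 0.05), limma gave 27 higher (9.61%) and 20 lower (7.12%), and edgeR 57 in either direction. Over all 281 miRNAs the median difference was -0.066, with 130 higher (46.3%) and 151 lower (53.7%). At least 2-fold higher were 9 miRNAs (3.2%). At least 2-fold lower were 2 (0.712%), miR-1981-5p and miR-1961, of which the second was picked out after its values were seen. miR-1961 had a difference of -1.14 (SE 0.657, limma adjusted p = 0.370).

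The miRNAs of motile cilia had the highest median difference of the lists, 1.95. All 3 measured members of a list of 9 had higher values in run 3, and 1 of the 3 passed the test. With run fitted as 4 levels and run 3 set against the equal-weight mean of the others, all 3 passed (limma adjusted p = 0.000706 for miR-34b-5p, 0.00908 for miR-34c-5p and 0.0442 for miR-34b-3p). The error of that fit is the spread of libraries within runs. Differences among runs 1, 2 and 4 do not enter it, and run 3 is a single run. The list median was 1.58 without vehicle replicate 7 and 2.30 without CBD replicate 8. Their summed level was 2257 to 5620 CPM (median 2374) in run 3, against 250.4 to 2247 CPM (median 559) in the other runs. The other 6 list members, from the miR-449 cluster and the 3p arm of miR-34c, are not in the table.

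miR-34b-5p had log2 CPM of 9.78 and 10.56 in CBD replicates 7 and 8 and 9.73 and 11.09 in vehicle replicates 6 and 7 of run 3, against a lowest value of 5.67, a median of 7.32 and a highest of 9.90 in the other 16 libraries. All 4 libraries of run 3 were above 15 of the 16 others, and the groups overlapped through CBD replicate 10 of run 4 alone. The difference was 2.91 (SE 0.582, 95% interval 1.71 to 4.12, limma adjusted p = 0.00700), a 7.54-fold higher level. In reads it averaged 663 per library in run 3 and 201 in the other runs. Without CBD replicate 8 the difference was 2.84 with an adjusted p of 0.0573, and without vehicle replicate 7 it was 2.60 with an adjusted p of 0.103. With array weights, which let limma weight libraries unequally, it was 2.14 with an adjusted p of 0.0961.

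miR-34c-5p, from the same transcript, had 10.37 and 9.28 log2 CPM in the CBD and 10.29 and 11.55 in the vehicle libraries of run 3, against 7.10, 8.20 and 10.45 (lowest, median, highest) in the others. CBD replicate 8 was the lowest of run 3 here, and 3 of the other 16 libraries reached its level. The difference of 1.95 (SE 0.506, limma adjusted p = 0.0589) did not pass the test. It was 1.93 and passed with run as 4 levels (limma adjusted p = 0.00908), passed with median centring (0.0442), and was 2.30 without CBD replicate 8 (0.0573). It was 1.58 without vehicle replicate 7 (limma adjusted p = 0.313) and 1.05 against run 4 alone (limma adjusted p = 0.411). miR-34b-3p, the other arm of the miR-34b hairpin, had 7.19 and 8.05 in CBD and 7.23 and 8.81 in vehicle libraries of run 3, against 5.25, 6.34 and 7.63 in the others. Here 5 of the 16 others reached the lowest value of run 3, and the difference was 1.27 (SE 0.397, limma adjusted p = 0.0776), or 1.20 without CBD replicate 8. Without vehicle replicate 7 that difference was 0.91 (limma adjusted p = 0.437).

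The gap between the arms of the hairpin was wider in run 3, which was not tested. The 5p arm exceeded the 3p arm by 2.47 ± 0.132 log2 units in run 3 (SD, n = 4) and by 0.828 ± 1.15 in the other runs (SD, n = 16). The miR-34b-5p level also stood closer to miR-34c-5p in run 3, at -0.0811 ± 0.914 against -1.05 ± 0.524 log2 units. CBD replicate 8 was the only run 3 library with miR-34b-5p above miR-34c-5p, by 1.29. miR-34a-5p, which shares the seed of miR-34b-5p but comes from its own gene and is made in many cell types, had a difference of 0.57 (SE 0.262, limma adjusted p = 0.268).

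**Figure D1:**
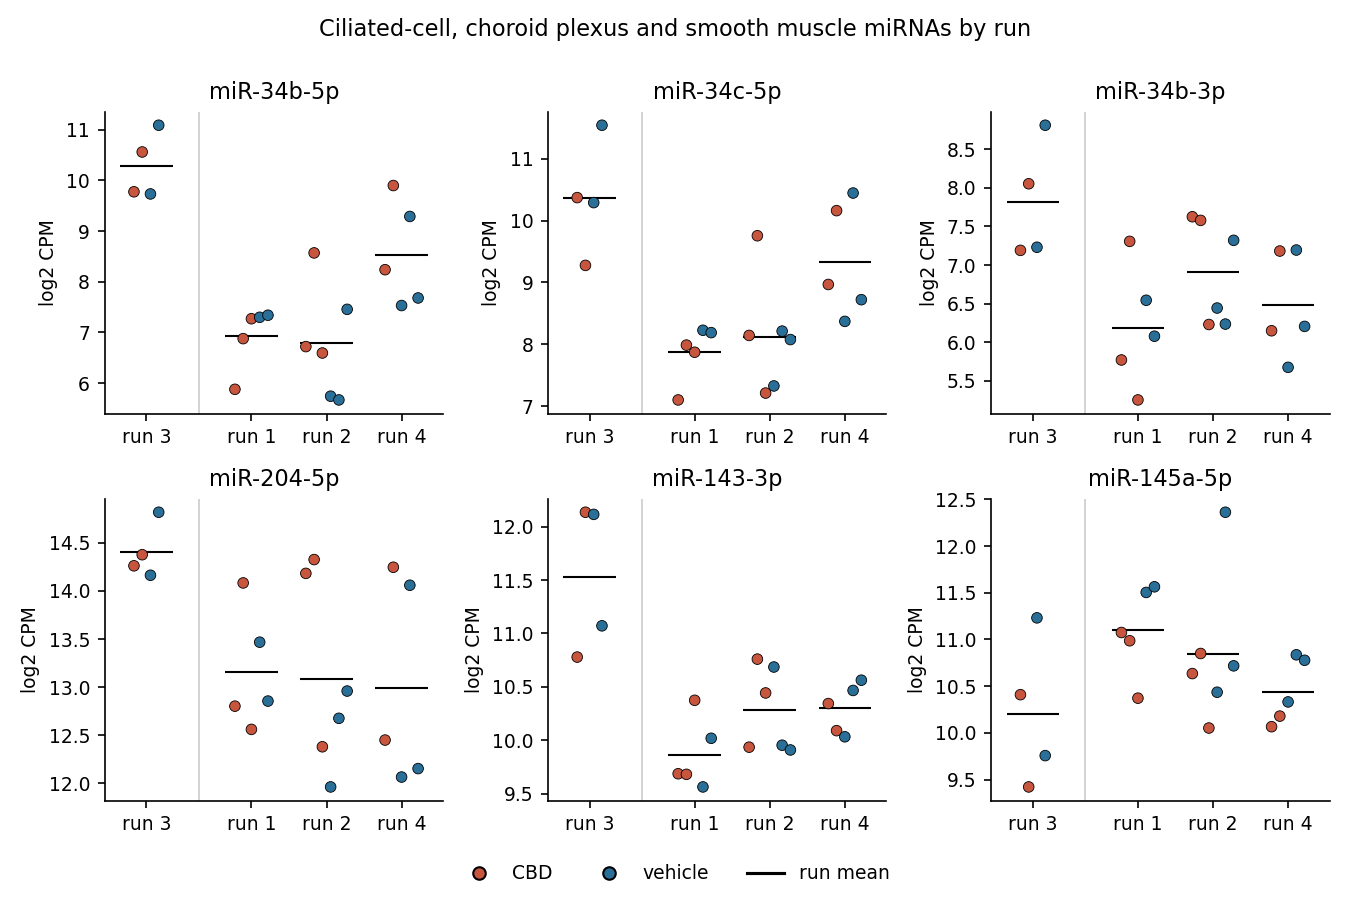
Log2 CPM of 6 marker miRNAs in each library, one point per mouse, with run 3 on the left and runs 1, 2 and 4 on the right (CBD red, vehicle blue, bar the run mean). For miR-143-3p the 4 run 3 libraries lie above all others, for miR-34b-5p above 15 of 16, and for miR-145a-5p 2 of the 4 lie below all others.

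miR-34b-5p was not at one level in the other runs. Its mean log2 CPM was 6.93 in run 1, 6.79 in run 2 and 8.53 in run 4, against 10.29 in run 3. With run as 4 levels, miR-34b-5p in run 3 was higher than in run 1 by 3.39 and than in run 2 by 3.50, with limma adjusted p-values of 0.000917 and 0.000162. Its excess over run 4 was 1.73 (SE 0.544, limma adjusted p = 0.178). Across the 16 libraries outside run 3, miR-34c-5p followed miR-34b-5p (Pearson r = 0.90, Spearman rho = 0.84, permutation p = 1e-05 and 0.00011, adjusted 4e-05 and 0.00044 over 4 relations). The r was 0.81 without the 2 libraries farthest from the median, 0.85 with run means removed and 0.76 within the 6 libraries of run 2. The 2 miRNAs share a transcript and each library's scaling. miR-34b-3p, the other arm of the miR-34b hairpin, had r = 0.36 and rho = 0.16 with miR-34b-5p over the same 16 libraries (permutation p = 0.169 and 0.565, adjusted 0.225 and 0.565), and r = 0.64 with run means removed.

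Of the choroid plexus list of 11, miR-204-5p was the single member in the table, and its higher value in run 3 did not pass the test. It had 14.26 and 14.38 log2 CPM in CBD and 14.16 and 14.82 in vehicle libraries of run 3, against 11.96, 12.83 and 14.33 in the others. The 4 run 3 libraries lay within a narrow band (SD 0.289), while the others spread over a wide range (SD 0.851) and 3 of them reached the lowest of run 3. The difference was 1.33 (SE 0.394, limma adjusted p = 0.0776). It was 1.42 without CBD replicate 8 and 1.10 without vehicle replicate 7 (limma adjusted p = 0.218 and 0.343). Against runs 1, 2 and 4 taken singly it was 1.30, 1.33 and 1.37 (limma adjusted p = 0.0760, 0.0418 and 0.254). Of these, only the one against run 2 passed the threshold. None of the 10 miRNAs hosted by Htr2c, a receptor gene highly expressed in choroid plexus, is in the table, nor are miR-211 and the miR-200 family. Across the 16 other libraries miR-204-5p had r = 0.50 and rho = 0.35 with miR-34b-5p (permutation p = 0.0491 and 0.185, adjusted 0.0981 and 0.292). That r was 0.23 without the 2 farthest libraries and 0.73 with run means removed.

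The smooth muscle pair had differences of opposite sign. miR-143-3p had 10.78 and 12.14 log2 CPM in CBD and 12.12 and 11.07 in vehicle libraries of run 3, against 9.56, 10.06 and 10.76 in the others. It was the single miRNA of 281 (0.356%) whose 4 run 3 values lay above all 16 others, although CBD replicate 7 cleared the highest of them by a small margin. The difference was 1.37 (SE 0.258, 95% interval 0.83 to 1.90, limma adjusted p = 0.00669). Without CBD replicate 8 it was 1.15 with an adjusted p of 0.0573, and without vehicle replicate 6 it was 1.16 with an adjusted p of 0.0718. Against run 1, run 2 and run 4 singly it was 1.66, 1.24 and 1.22, and the last did not pass (limma adjusted p = 0.108).

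miR-145a-5p, made from the same transcript, had 10.41 and 9.42 log2 CPM in CBD and 11.23 and 9.76 in vehicle libraries of run 3, against 10.05, 10.75 and 12.36 in the others. Of the 4 run 3 values, 2 lay below every other library and the groups overlapped in the rest. The difference was -0.59 (SE 0.319, limma adjusted p = 0.333). It was -0.33 without vehicle replicate 7, -0.41 without CBD replicate 8 and -0.86 without vehicle replicate 6. miR-143-3p minus miR-145a-5p was 0.37 and 2.71 in CBD and 0.88 and 1.32 in vehicle libraries of run 3, against -2.41 to 0.39 in the others (mean 1.32 ± 1.01 and -0.640 ± 0.847, SD, n = 4 and 16). The endothelial miR-126a-3p and miR-126a-5p, which mark the inner layer of the same vessels, had differences of -0.30 and -0.22, and neither passed. The second was 0.0019 without CBD replicate 8.

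**Figure D2:**
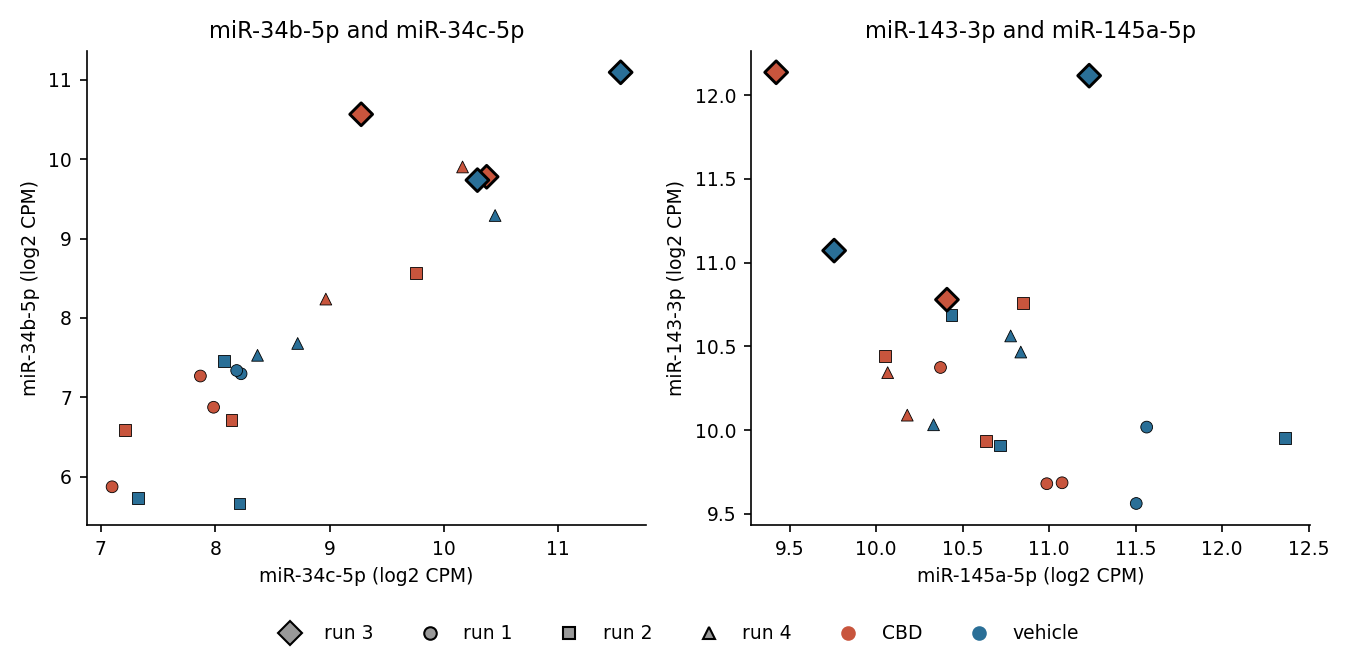
Left, miR-34b-5p against miR-34c-5p, and right, miR-143-3p against miR-145a-5p, in log2 CPM, one point per library (run 3 large diamonds, runs 1, 2 and 4 circles, squares and triangles; CBD red, vehicle blue). On the left run 3 continues the upper end of the other libraries, with CBD replicate 8 off to one side, and on the right it lies above the others in miR-143-3p.

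Neuronal miRNAs were spread around no difference. Of 19 measured members of a list of 20, 9 were higher and 10 lower, none passed the test, and their median difference was -0.031 beside -0.066 for all miRNAs. miR-124-3p, the most specific of them, had 10.46, 10.35, 11.09 and 10.00 log2 CPM in run 3 (CBD replicates 7 and 8, then vehicle replicates 6 and 7), against 8.95, 10.71 and 11.68 in the others. Its difference was -0.11 (SE 0.339, 95% interval -0.82 to 0.59), or -0.16 without CBD replicate 8. miR-9-5p, also made in progenitors and ependyma, had the highest difference of the list, 0.46 (SE 0.214, limma adjusted p = 0.275), and miR-124-5p the lowest, -0.67 (SE 0.255, limma adjusted p = 0.151). Without CBD replicate 8 these were 0.30 and -0.40, and the list median was 0.14 without vehicle replicate 7. The 19 together summed to 232337 to 338562 CPM in run 3, against 160832 to 289735 CPM in the others.

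The lists of other cell types held no miRNA past the test. Of the oligodendrocyte list, 4 of 7 were measured, 3 higher, with a median difference of 0.72, or 0.35 without vehicle replicate 7. miR-219a-2-3p, which rises as oligodendrocytes mature, had 7.38 and 7.95 in CBD and 7.50 and 9.53 in vehicle libraries of run 3, against 6.02, 7.05 and 7.61 log2 CPM in the others. Vehicle replicate 7 was the highest of the 20, and the difference was 1.00 (SE 0.304, limma adjusted p = 0.0776). It was 0.54 without that library and 0.99 without CBD replicate 8 (limma adjusted p = 0.466 and 0.231). It passed with run as 4 levels (limma adjusted p = 0.0442) and by edgeR on recovered reads, and without CBD replicate 7 (limma adjusted p = 0.0471). It came with 1.20 for miR-219a-5p (SE 0.460, limma adjusted p = 0.151). miR-338-3p had a difference of 0.44 and miR-338-5p one of -0.41 (limma adjusted p = 0.455 and 0.718). The 4 together summed to 899 to 5161 CPM (median 2133) in run 3, against 1014 to 6345 CPM (median 2117) in the others.

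The endocrine list (miR-7 and miR-375) had 3 of 4 members higher and a median of 0.69. The lower member was miR-7a-1-3p, at -0.52. miR-375-3p, known from pancreatic islets and pituitary, had a difference of 1.21 (SE 0.390, limma adjusted p = 0.0889). It was 0.80 without vehicle replicate 7 and 1.24 without CBD replicate 8 (limma adjusted p = 0.466 and 0.243). Of the immune list 3 of 7 were measured, with a median of -0.080 and values from -0.71 for miR-150-5p to 0.61 for miR-21a-5p. Of the blood cell list miR-486b-5p alone was measured, at -0.18. No member of the lists for mesenchyme and meninges, striated muscle, pineal and retina, or the Hox clusters is in the table. The 6 measured entries that resemble rRNA or tRNA fragments were all lower, with a median of -0.49 and none past the test.

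**Figure D3:**
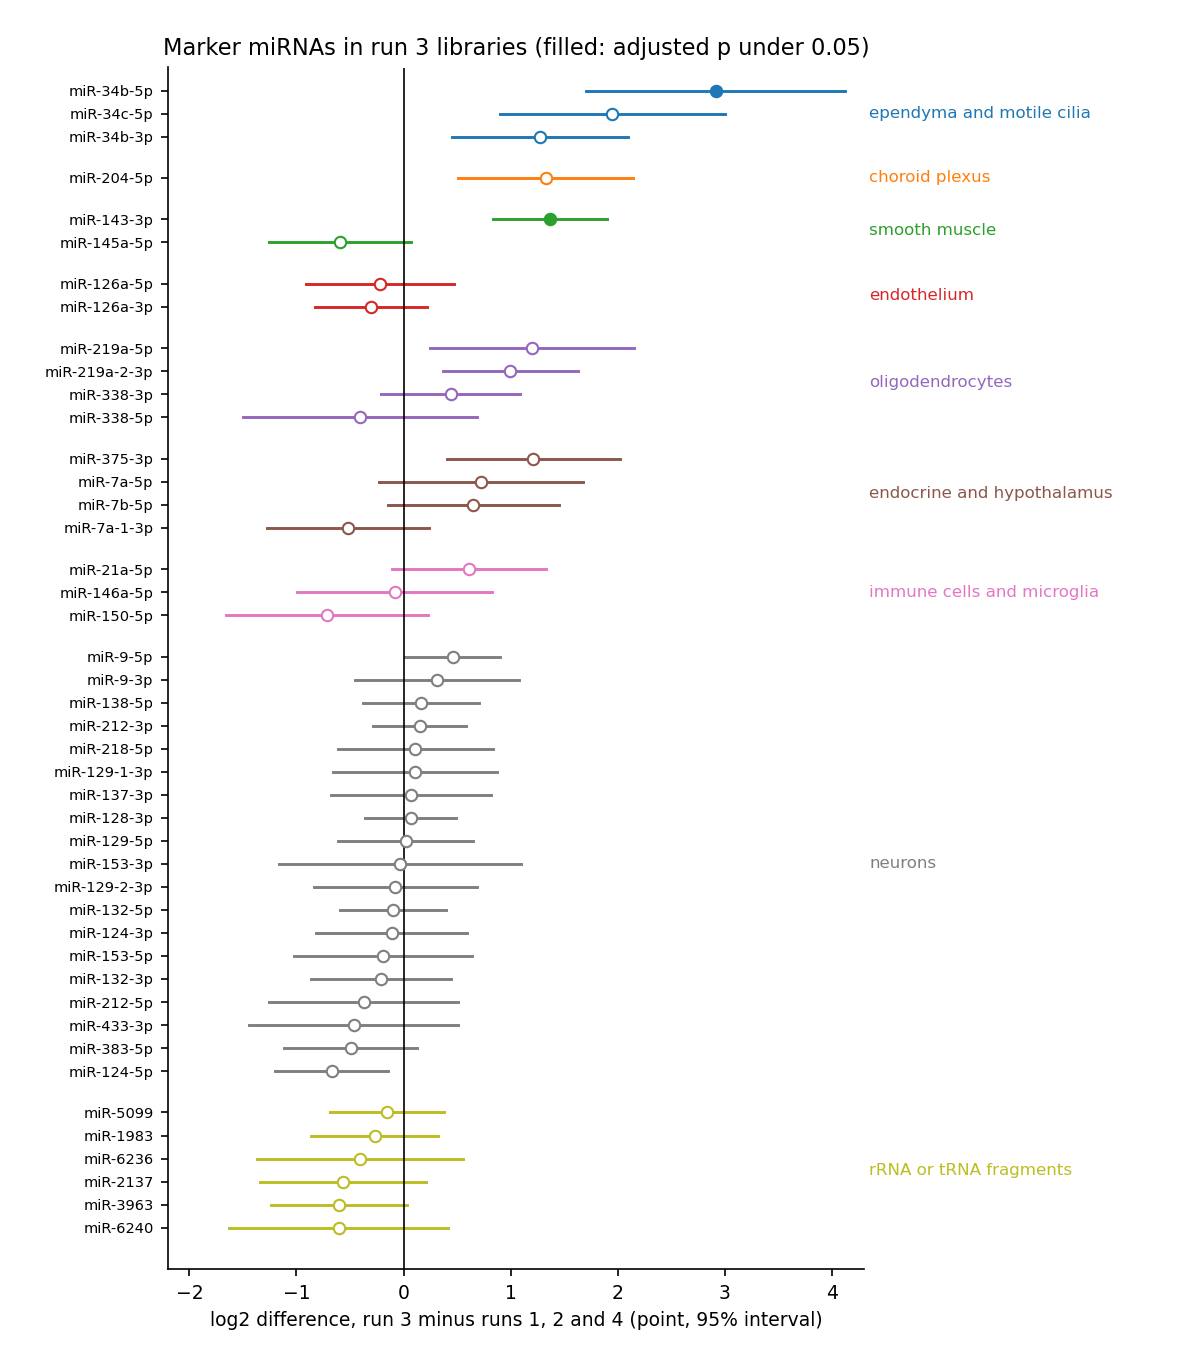
Difference of each measured marker miRNA (log2, run 3 minus runs 1, 2 and 4) with its 95% interval, grouped by list; filled points passed an adjusted p of 0.05. The 3 miRNAs of motile cilia and miR-204-5p lie to the right, the 2 smooth muscle miRNAs lie on either side of 0, and the 19 neuronal miRNAs centre near 0.

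Among miRNAs outside the lists, miR-341-3p had 12.56 and 14.39 log2 CPM in CBD and 12.91 and 12.77 in vehicle libraries of run 3, against 11.27, 12.02 and 13.14 in the others. CBD replicate 8 was the highest of all 20, and the difference of 1.08 (SE 0.295, limma adjusted p = 0.0776) was 0.69 without it (limma adjusted p = 0.302). miR-127-3p, which is expressed from the maternal chromosome and cleaves Rtl1 transcripts, had 13.50 and 12.40 in CBD and 13.78 and 13.50 in vehicle libraries of run 3, against 13.45, 14.19 and 14.89. Its difference was -0.94 (SE 0.239, limma adjusted p = 0.0589), or -0.69 without CBD replicate 8 (limma adjusted p = 0.231). miR-341-3p and miR-127-3p both passed with run as 4 levels (limma adjusted p = 0.0281 for each). Against run 4 alone they had differences of 0.70 and -1.07, and neither passed (limma adjusted p = 0.411 and 0.110). The 2 are the highest and the lowest of 52 measured miRNAs of the Dlk1-Meg3 region on chromosome 12, of which 22 were higher and 30 lower, none past the test.

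miR-344d-3p was the one miRNA with all 4 run 3 values below all 16 others (0.356% of 281), at 6.89 and 7.14 in CBD and 6.91 and 6.50 in vehicle libraries, against 7.17, 7.61 and 8.61 log2 CPM. Its difference was -0.79 (SE 0.245, limma adjusted p = 0.0776), or -0.89 without CBD replicate 8 (limma adjusted p = 0.192). miR-342-3p, from an intron of Evl, had a difference of -0.77 (SE 0.225, limma adjusted p = 0.0776). miR-1981-5p, from an intron of Marc2, had one of -1.22 (SE 0.367, limma adjusted p = 0.0776). Without CBD replicate 8 the differences of miR-342-3p and miR-1981-5p were -0.74 and -0.98 (limma adjusted p = 0.231 and 0.302). The other miRNAs given by the smallest p were miR-708-3p and miR-181b-5p with higher values (0.85 and 0.68), and miR-1198-5p, miR-191-5p, miR-222-3p, miR-330-3p, miR-346-5p and miR-666-5p with lower ones, from -0.88 to -0.57. Without vehicle replicate 7 the difference of miR-181b-5p was 0.29 and that of miR-346-5p -0.47, and without CBD replicate 8 that of miR-708-3p was 0.60 and that of miR-666-5p -0.55.

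The miRNAs whose levels over all 20 libraries were most like miR-34b-5p, outside the cilia list, were miR-204-5p (Pearson r = 0.71), miR-192-5p (0.70), miR-9-5p (0.66), miR-143-3p (0.66) and miR-671-5p (0.65). Over the 16 libraries outside run 3 those r were 0.50, 0.44, 0.55, 0.27 and 0.60. For miR-143-3p the most alike were let-7i-5p (0.79), miR-98-5p (0.78), miR-181d-5p (0.73), miR-181c-3p (0.69) and miR-192-5p (0.66). Outside run 3, over 16 libraries, these were 0.73, 0.72, 0.57, 0.24 and 0.57. These are descriptions over libraries that share run and scaling.

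Base composition moved with the comparison. Across the 247 miRNAs with a sequence, the difference fell with GC content (Pearson r = -0.32, Spearman rho = -0.33, across miRNAs, which are not independent replicates). With the miRNAs in 4 bins of GC, its median was -0.35 in the highest bin and 0.13 in the lowest. The same r was 0.57 for run 2 and -0.57 for run 4, each against its other runs. Reads of run 3 had a mean GC of 44.6% ± 0.148, against 45.5% ± 0.682 in the other runs (SD, n = 4 and 16). An exact permutation test within treatment, two-sided, gave p = 0.0262 for it, or 0.236 adjusted over 9 library measures. This test relabelled single libraries, and run 3 is a single run. Its p-values therefore do not measure how far runs differ from one another.

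The slope of level on GC was -0.114 ± 0.175 log2 units per 10 points in run 3 and 0.0284 ± 0.233 in the other runs (exact permutation p = 0.269, n = 4 and 16). CBD replicate 8 alone in run 3 had a positive slope, 0.134. Of the 9 measures none passed the adjusted threshold, total reads included (555710 ± 105812 against 732466 ± 324190, exact permutation p = 0.313, n = 4 and 16). The smallest p this design can give is 0.000494. With each library's GC slope as a further term, miR-34b-5p kept a difference of 2.60 and miR-143-3p one of 1.36 (limma adjusted p = 0.0121 and 0.00931), 5 miRNAs being called. With log2 total reads as the term, 10 were called.

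**Figure D4:**
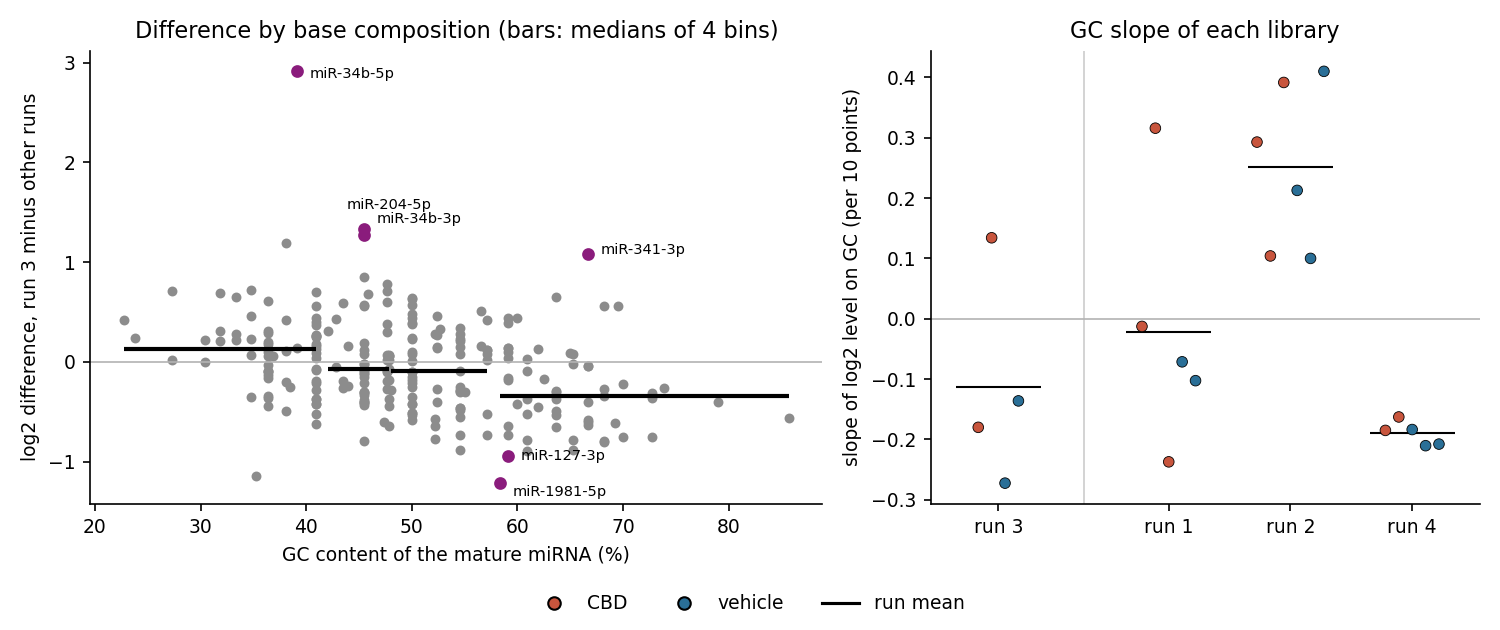
Left, difference of each of 247 miRNAs (log2, run 3 minus runs 1, 2 and 4) against the GC content of its mature sequence in percent, with black bars for the medians of 4 GC bins; right, slope of log2 level on GC (per 10 points) in each library by run, with the run mean. The bin medians step down with GC, 0.13 in the lowest and -0.35 in the highest bin, and vehicle replicate 6 of run 3 has the lowest slope of the 20 libraries, -0.272, while the other 3 of run 3 lie within the range of the other runs.

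Run 3 was not the run that stood farthest from the rest. Set against its other 3 runs in the same way, run 3 gave 2 calls, run 1 gave 26 (9.25%), run 2 gave 84 (29.9%) and run 4 gave none (0%), although 26 were higher (9.25%) and 24 lower (8.54%) where the p was left unadjusted (under 0.05). These comparisons share libraries. The split of run 3 from the other runs held 10.3% of the summed squared distance of the libraries from the mean. The same split held 11.5%, 24.1% and 10.8% for runs 1, 2 and 4, beside 5.26% expected of a random split. With run as 4 levels, run 3 against the equal-weight mean of the other runs gave 15 calls (5.34%), 7 higher (2.49%) and 8 lower (2.85%). All 15 are among the 20 miRNAs given by the smallest p, which were picked from the same libraries. Of the 15, 3 are the cilia miRNAs, which share a transcript. Against run 1 it gave 33 (11.7%), against run 2 71 (25.3%) and against run 4 none (0%) by limma, although 19 were higher (6.76%) and 14 lower (4.98%) where the p was left unadjusted (under 0.05).

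The higher levels appeared in both treatments. miR-34b-5p in run 3 exceeded the other runs by 2.66 among CBD and by 3.16 among vehicle libraries, and miR-143-3p by 1.29 and 1.44. Neither treatment alone gave a call. The difference between CBD and vehicle inside run 3 departed from that in the other runs for none of 281 miRNAs (0%) by limma, and for 1 in the higher (0.356%) and 2 in the lower direction (0.712%) at an unadjusted p under 0.05. The one in the higher direction was miR-342-5p, with an interaction of 1.995 (SE 0.682, limma adjusted p = 0.991). It had 6.60 and 7.63 log2 CPM in CBD and 5.62 and 4.80 in vehicle libraries of run 3. With 2 libraries per treatment in run 3 the interval was wide, 0.58 to 3.41. Without CBD replicate 7, which leaves a single CBD library assumed to vary like the rest, 2 miRNAs were called.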

How the data were processed

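Small RNA libraries from 20 mice were analysed, 10 CBD and 10 vehicle, each mouse a separate replicate. Per the labels' protocols, Trizol RNA was made into libraries with a TruSeq small RNA kit. No molecular identifiers are named, so reads are not independent molecules. The submitters' processing notes list mm10, limma and edgeR without versions. The aligner and the counter were not given in the sources used here.

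Deposited by the authors were log2 values per 1000000 reads for 281 miRNAs. Whole reads were recovered for 100% of them in every library within a tolerance of 1e-06. The deposited technical table holds a library size, a count of miRNAs, a normalization ratio of 1 throughout, and the run number, per the file headers. Every sample column was mapped, leaving 0 unused. The 2 comparison tables of the authors were not used.

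The comparison used limma 3.58.1 in R 4.3.3 (variance trend, two-sided, Benjamini-Hochberg over 281, threshold 0.05) on the deposited log2 values, all 20 libraries, terms run 3 and treatment. Scripts were tested on simulated data. Alternatives on recovered reads used edgeR 4.0.16 and size factors of DESeq2 1.42.0. Library measures were tested by exact permutation of the run label within treatment (2025 relabellings), in Python 3.11.15. Sequences matched 247 of 281 names (87.9%) and hairpins were placed on GRCm38.

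Named miRNAs are the 10 highest and the 10 lowest past the threshold, filled by the smallest p. Added were every measured member of the main marker lists and 7 chosen single miRNAs, of which miR-142a-3p and miR-451a were not measured. Further ones are 5 for the interaction and 5 most alike for each called miRNA. The members and lists were chosen with earlier results of these data known.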

Additional observations from a re-analysis of the deposited data

Results flagged for a closer look

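Of 59 values checked over the 4 libraries of run 3, 3 had one library far from the other 3, and all 3 lay in CBD replicate 8. Chance gives such a gap in about 1 in 20 groups. miR-708-3p was 8.08 log2 CPM there, against 6.89 to 7.08 in the other run 3 libraries. miR-433-3p was 11.27 log2 CPM there, against 10.49 to 10.60. The top miRNA, miR-434-3p, took 31.6% of the reads there, against 15.9% to 18.4%.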

How the results depend on the processing

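The count of 2 called miRNAs was 15 with run as 4 levels, 33 against run 1, 71 against run 2, 0 against run 4, 0 with vehicle and 0 with CBD libraries only, 4 with median centring, 4 by edgeR, 10 with log2 total reads as a term and 5 with the GC slope as a term. It ranged from 0 to 14 when 1 library was left out, being 14 without CBD replicate 7, 0 without CBD replicate 8, 1 without vehicle replicate 6 or 7, and 6 without CBD replicate 10. miR-34b-5p passed in 35 of 41 settings and miR-143-3p in 36 of 41, many of which only leave out 1 library outside run 3. miR-34b-5p did not pass without CBD replicate 8 or without vehicle replicate 7. miR-143-3p did not pass without CBD replicate 8 or without vehicle replicate 6. With array weights 2 were called, miR-127-3p and miR-143-3p, and miR-34b-5p was not (2.14, adjusted p = 0.0961). The 20 miRNAs picked by the smallest p kept their sign in every setting run, but the settings reuse the libraries that picked them. Scaling by total reads moved the median of all miRNAs to -0.165. The interaction count ranged from 0 to 2 when 1 run 3 library was left out. The median of the entries like rRNA or tRNA fragments ranged from -0.87 to -0.25. With 1 run 3 library left out, the run 3 minus others gap ranged from -4.38 to 0.838 points for the share of the top miRNA, -0.103 to 0.029 for the scaling factor, -0.0315 to 0.0544 points for the share of the table, -0.0361 to 0.0185 bases for mean read length and -0.0449 to 0.00155 for the slope on length. Leaving out libraries under 350000 reads was chosen after seeing the data. No paired analysis was possible because each mouse gives 1 library and the replicate numbers follow accession order. Reads of low miRNAs limit precision, with as few as 2 in a library. The remaining sign changes were in differences that did not pass the test as reported, and their cause was not tested. Against run 1 alone the difference was -0.087 for miR-129-5p, -0.14 for miR-129-1-3p, 0.022 for miR-153-5p, -0.013 for miR-218-5p, 0.32 for miR-132-3p, 0.19 for miR-433-3p and 0.55 for miR-146a-5p. Against run 2 alone the difference was 0.052 for miR-126a-3p, 0.46 for miR-124-3p, -0.26 for miR-129-5p, -0.27 for miR-129-1-3p, 0.89 for miR-153-3p, 0.035 for miR-153-5p, 0.20 for miR-132-5p, 0.17 for miR-212-5p, 0.089 for miR-338-5p and -0.43 for miR-434-3p. Against run 4 alone the difference was -0.11 for miR-128-3p, 0.59 for miR-129-2-3p, -0.53 for miR-137-3p, -0.38 for miR-138-5p, -0.42 for miR-218-5p, -0.044 for miR-212-3p, -0.28 for miR-9-3p, 0.11 for miR-433-3p, 0.014 for miR-338-5p, 0.31 for miR-146a-5p and 0.17 for miR-6236. With vehicle libraries only the difference was -0.24 for miR-129-5p, 0.22 for miR-153-5p, 0.68 for miR-338-5p and -0.14 for miR-434-3p. With CBD libraries only the difference was 0.14 for miR-124-3p, 0.18 for miR-129-2-3p, 0.079 for miR-153-3p, 0.18 for miR-212-5p and 0.042 for miR-146a-5p. With median centring the difference was 0.0021 for miR-129-2-3p and 0.047 for miR-153-3p. With quantile normalization the difference was 0.060 for miR-146a-5p. With scaling by total reads the difference was -0.030 for miR-128-3p, -0.077 for miR-129-5p, -0.028 for miR-137-3p and -0.021 for miR-434-3p. By edgeR the difference was -0.039 for miR-129-1-3p. With array weights the difference was 0.0087 for miR-124-3p, -0.070 for miR-128-3p, -0.062 for miR-129-5p, 0.19 for miR-129-2-3p, -0.14 for miR-138-5p, 0.14 for miR-153-3p, 0.070 for miR-132-5p, 0.083 for miR-212-5p, 0.087 for miR-338-5p and 0.011 for miR-146a-5p. With log2 total reads as a term the difference was 0.0084 for miR-124-3p, -0.046 for miR-129-5p, 0.16 for miR-153-3p and -0.041 for miR-434-3p. With the GC slope as a term the difference was -0.017 for miR-128-3p, 0.23 for miR-129-2-3p, -0.26 for miR-137-3p, -0.21 for miR-218-5p, -0.023 for miR-9-3p, 0.050 for miR-433-3p and 0.17 for miR-146a-5p. Without the libraries under 350000 reads the difference was -0.046 for miR-128-3p, 0.11 for miR-129-2-3p, -0.0073 for miR-137-3p and 0.086 for miR-146a-5p. When single libraries were left out, the difference ranged from -0.41 to 0.0019 for miR-126a-5p, -0.23 to 0.15 for miR-124-3p, -0.019 to 0.15 for miR-128-3p, -0.43 to 0.32 for miR-129-5p, -0.011 to 0.21 for miR-129-1-3p, -0.27 to 0.076 for miR-129-2-3p, -0.18 to 0.30 for miR-137-3p, -0.36 to 0.25 for miR-153-3p, -0.47 to 0.32 for miR-153-5p, -0.12 to 0.37 for miR-218-5p, -0.31 to 0.14 for miR-132-5p, -0.69 to 0.26 for miR-212-5p, -0.84 to 0.10 for miR-338-5p, -0.28 to 0.30 for miR-434-3p, -0.18 to 0.028 for miR-146a-5p, -0.87 to 0.017 for miR-6236 and -2.55 to 0.085 for the miR-410-3p interaction.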
